A study of Mus musculus with 12 samples.

Results

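The cleavage, polyadenylation and capping factors described here are 10 of the 58735 genes listed in the expression table: CPSF1, CPSF2, CPSF3, CPSF6, CPSF7, NUDT21, CSTF2, CSTF3, FIP1L1 and RNMT. They were chosen for their function in forming the ends of messenger RNA, with earlier results of these data known. Each was found in the table by its full name. RNA was sequenced from U2OS, a human osteosarcoma cell line, in 12 libraries that formed 4 groups of 3. The groups were blank cells, which are U2OS cells labelled with no treatment, cells given the siRNA siSRSF1-2, cells given the siRNA siSRSF1-3, and OE-LINC01134 cells, in which the long non-coding RNA LINC01134 was overexpressed. Both siRNAs target SRSF1, a serine/arginine-rich splicing factor. The study names RNMT and FIP1L1 among genes with splicing events that it attributes to SRSF1. Levels per gene, as used here, do not show a change of splicing. No library from cells given a control siRNA or an empty vector was analysed here, so the effect of a transfection or a vector and that of its target cannot be told apart. The labels name no clone, and the vector or promoter that carried LINC01134 is not given in the sources used here.

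The end of a messenger RNA is made in the nucleus by a large protein machine. The cleavage and polyadenylation specificity factor (CPSF) recognises the polyadenylation signal, and its subunit CPSF3 is the endonuclease that makes the cut. Cleavage factor I, built from NUDT21 with CPSF6 or CPSF7, binds UGUA motifs upstream of the cut, and the cleavage stimulation factor (CstF), which includes CSTF2 and CSTF3, binds GU-rich RNA downstream of it. The balance among these factors is known to influence which of several polyadenylation sites a gene uses. At the other end of the transcript, RNMT methylates the guanine cap.

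Values were the deposited FPKM, fragments per kilobase of gene after scaling for library size. Each library had between 26237763 and 32954539 reads on genes, and the factors held from 706 reads (CPSF2) to 8695 reads (RNMT) in a library. The blank libraries gave 35.9, 19.8 and 20.5 FPKM of SRSF1, the siSRSF1-2 libraries 7.09, 7.46 and 7.41, and the siSRSF1-3 libraries 3.33, 6.81 and 7.90. LINC01134 lay between 878 and 1279 FPKM in the OE-LINC01134 libraries and at most 1.11 FPKM in the other libraries. Some libraries stood apart from their group. Blank replicate 1 and OE-LINC01134 replicate 2 each correlated best with the other (r = 0.952 over genes). Within its own group, blank replicate 1 reached at most 0.937 and OE-LINC01134 replicate 2 at most 0.941. Likewise, siSRSF1-3 replicate 3 correlated best with siSRSF1-2 replicate 1 (r = 0.960, against at most 0.922 within its group). Among themselves, the siSRSF1-2 libraries varied by 2.60 to 3.20 times counting noise (chi-square per degree of freedom), as did blank replicates 2 and 3 (2.75) and OE-LINC01134 replicates 1 and 3 (2.13), while every other pair within a group reached at least 63.2. Nothing in the labels says that the libraries came from separate cultures, so p-values measure the spread between these libraries, which may be technical. Of 5 mesenchymal or osteoblast markers, 4 had a mean of at least 0.5 FPKM, and COL1A2 was near 0. Leukocyte markers (3) and hepatocyte markers (2) were all under 0.5 FPKM on average over the 12 libraries. The hepatocyte marker APOA1 had a mean of 0.669 FPKM with siSRSF1-3, and 1.22 FPKM in replicate 1 of that group. Of 3 epithelial markers, 2 had a mean of at least 0.5 FPKM (EPCAM and CDH1), and the 3 summed to at most 2.99 FPKM in any library.

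All 10 factors passed the filter of a mean of at least 0.5 FPKM. CPSF1, the scaffold subunit of CPSF, had the highest level, with a mean of 41.0 FPKM over the 12 libraries, higher than 93.6% of the 17538 genes tested. CPSF2, the partner of CPSF3 that lacks nuclease activity, had the lowest, with a mean of 3.39 FPKM (percentile 45.7). An order among genes depends on the deposited gene lengths, which were 2187 bases for CSTF2, 3769 for CPSF3 and 13595 for CPSF2. In blank cells the order of mean FPKM was CPSF1, NUDT21, CSTF2, RNMT, CPSF7, CPSF3, CPSF6, CSTF3, FIP1L1 and CPSF2. There NUDT21, CSTF2 and RNMT each overlapped with the next in the order, as did CPSF3 with CPSF6 and CPSF6 with CSTF3. CPSF1 came first and CPSF2 last in all 4 groups, each without overlap with its neighbour. RNMT moved from rank 4 in blank cells to rank 2 with siSRSF1-2, where no neighbours overlapped. The coefficient of variation among replicates had a median over the factors of 14.5% in blank cells, 2.85% with siSRSF1-2, 16.2% with siSRSF1-3 and 10.6% with OE-LINC01134. Over all genes tested the medians were 16.1%, 5.50%, 28.3% and 16.2%.

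**Figure D1:**
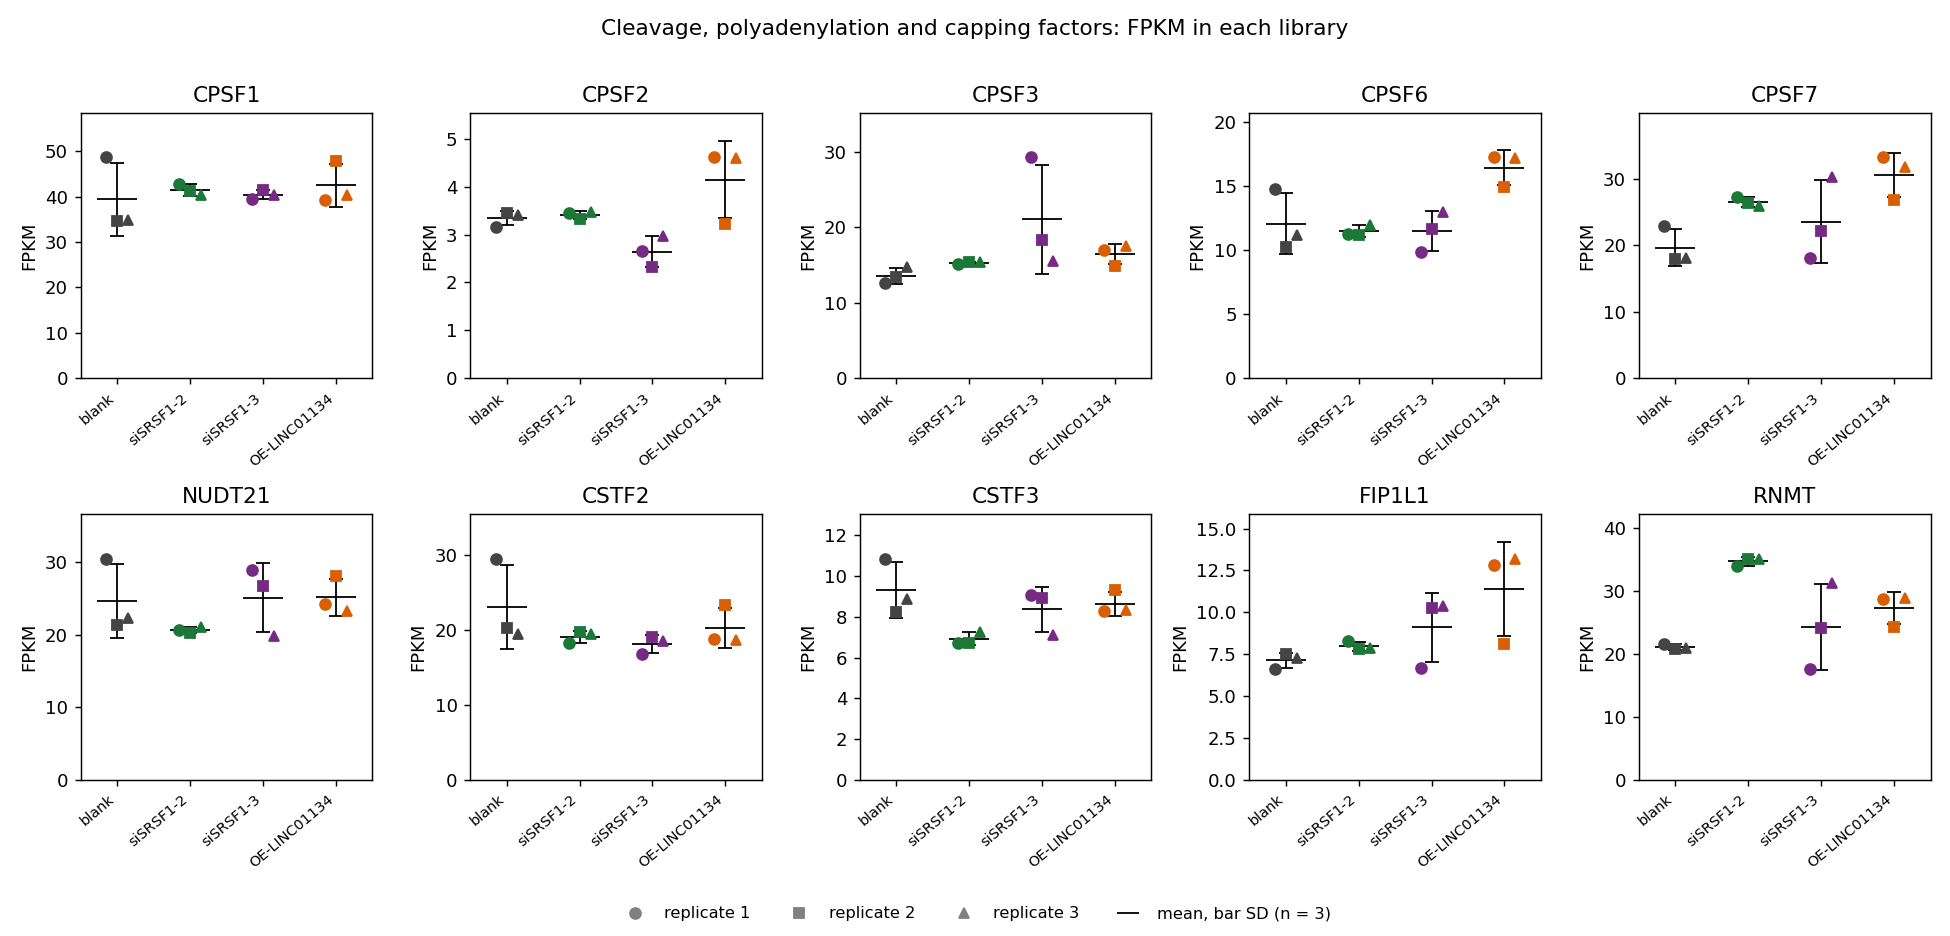
FPKM of each of the 10 factors (vertical axes, from 0) in every library of the 4 groups, with symbols for replicates and the group mean and SD (n = 3). The siSRSF1-2 libraries of RNMT, between 33.9 and 35.1 FPKM, lie above every blank library, and blank replicate 1 lies above both other blank libraries for CPSF1, CPSF6, CPSF7, NUDT21, CSTF2 and CSTF3.

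Cells given siSRSF1-2 were compared with blank cells to learn which of these factors differ in level when SRSF1 is low. RNMT and CPSF7 were higher and CSTF3 was lower, and the other 7 factors did not pass the test. RNMT gave 21.6, 20.8 and 20.9 FPKM in the blank libraries and 33.9, 35.0 and 35.1 FPKM in the siSRSF1-2 libraries. Every siSRSF1-2 library lay far above the blank libraries, and the replicates of each group were close together. The mean rose from 21.1 ± 0.419 to 34.7 ± 0.667 FPKM (SD, n = 3), a ratio of 1.64 (log2 fold change 0.72, standard error (SE) 0.0522, adjusted p = 0.00121 from limma).

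CPSF7, a large subunit of cleavage factor I, gave 22.8, 17.9 and 18.1 FPKM in blank cells and 27.3, 26.4 and 25.9 FPKM with siSRSF1-2. The groups did not overlap, although blank replicate 1 stood above the other blank libraries. The fitted log2 fold change was 0.44 (SE 0.106, adjusted p = 0.0280 from limma). CSTF3, the CstF subunit that holds the complex together, gave 10.9, 8.23 and 8.87 FPKM in blank cells and 6.74, 6.74 and 7.28 FPKM with siSRSF1-2. All siSRSF1-2 libraries lay under all blank libraries, with blank replicate 1 again the highest. The fitted log2 fold change was -0.42 (SE 0.115, adjusted p = 0.0435 from limma).

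In all, 3 of the 10 factors had an adjusted p under 0.05, where 26.8% of all genes tested did. Of these, 2 were higher and 1 lower, against 14.0% higher and 12.8% lower over all genes. Over all genes that was 2452 higher and 2250 lower, and 3692 and 1566 once the FPKM of each library were brought to one sum, where RNMT, CPSF7 and CPSF3 were the factors called. With the further requirement of an absolute log2 fold change over 1, the fold minimum of the study, 0 factors passed (4.95% of all genes). The FPKM of 6 factors (CPSF3, CPSF7, NUDT21, CSTF3, FIP1L1 and RNMT) did not overlap between the groups, against 49.5% of all genes. The share of the factors called was thus near that of all genes. The median log2 fold change of the factors was 0.06, against 0.02 over all genes. For each non-overlapping factor the exact two-sided permutation test gave p = 0.1, and 3 libraries against 3 cannot give less. In bulk RNA, fewer cells with a transcript and less of it per cell cannot be told apart.

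The calls did not all hold in other settings. RNMT lost its call in 1 fit over all 4 groups (adjusted p = 0.0539 from limma). That fit called 3.76% of all genes, against 26.8% in the fit of the pair. Near-identical replicates were also averaged and counted as 1 library, a setting chosen after seeing the data. This left 1 siSRSF1-2 library against 2 blank ones and cannot decide a call, and RNMT had a log2 fold change of 0.71 there. CPSF7 and CSTF3 lost their calls in the 1 fit and when any siSRSF1-2 library or blank replicate 3 was left out. Those leave-outs called 10.4% to 17.8% of all genes. CPSF7 also lost its call without blank replicate 2 (adjusted p = 0.0773 from limma), where 18.4% of all genes were called. With no filter on low values, CPSF7 had an adjusted p of 0.123 and CSTF3 of 0.166 (limma), and CSTF3 lost its call with FPKM rescaled to the same sum (adjusted p = 0.0637 from limma) and without a variance trend (0.0606). Without blank replicate 1 all 3 were called (adjusted p from 5.90e-05 to 0.00749, limma), together with CPSF1 (log2 fold change 0.25), where 52.2% of all genes were called.

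Among the factors that did not pass, CPSF3, the endonuclease, gave 12.6, 13.4 and 14.7 FPKM in blank cells and 15.2, 15.3 and 15.4 FPKM with siSRSF1-2 (log2 fold change 0.17, adjusted p = 0.136 from limma). The siSRSF1-2 values lay just above the highest blank value. NUDT21, the subunit of cleavage factor I that contacts UGUA, gave 30.5, 21.3 and 22.2 FPKM in blank cells and 20.6, 20.3 and 21.0 FPKM with siSRSF1-2 (log2 fold change -0.24, adjusted p = 0.260 from limma). Its difference in means came mainly from blank replicate 1, without which the log2 fold change was -0.07. FIP1L1, which links CPSF to poly(A) polymerase, gave 6.63, 7.51 and 7.24 FPKM in blank cells and 8.29, 7.78 and 7.87 FPKM with siSRSF1-2 (log2 fold change 0.16, adjusted p = 0.162 from limma). CPSF1, CPSF2, CPSF6 and CSTF2 overlapped between the groups, with log2 fold changes of 0.09, 0.03, -0.05 and -0.25.

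**Figure D2:**
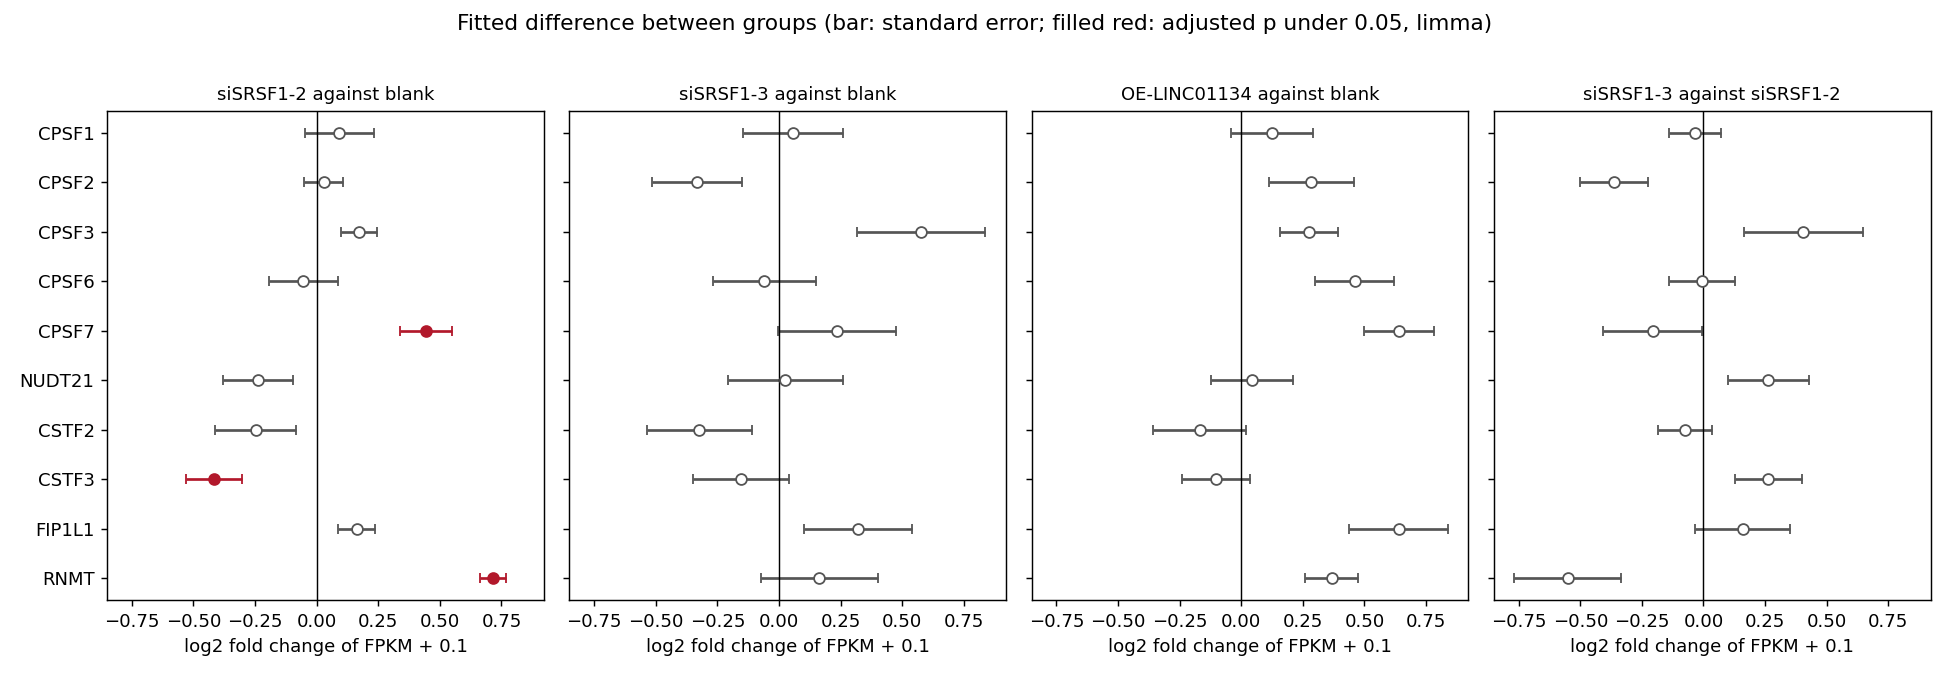
Log2 fold change of FPKM + 0.1 (horizontal axis) with its standard error for each of the 10 factors (vertical axis) in the 4 comparisons. Filled red points mark an adjusted p under 0.05 from limma, which RNMT (0.72), CPSF7 (0.44) and CSTF3 (-0.42) had with siSRSF1-2.

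RNMT (ENSG00000101654) was listed on chromosome 18 from 13726660 to 13764558 on the plus strand. The human genome build of these coordinates is not given in the sources used here. FAM210A (ENSG00000177150), a gene of a mitochondrial protein that starts beside RNMT and runs the other way, shares 4 bases with it. It was chosen for this position. FAM210A gave 17.9, 16.5 and 16.7 FPKM in blank cells and 36.8, 36.4 and 36.4 FPKM with siSRSF1-2 (log2 fold change 1.10, adjusted p = 0.000698 from limma). With siSRSF1-3 it gave 29.8, 30.1 and 32.8 FPKM (log2 fold change 0.86, adjusted p = 0.0518 from limma), and with OE-LINC01134 25.2, 19.1 and 24.7 FPKM (log2 fold change 0.42, adjusted p = 0.119 from limma). All 9 libraries outside the blank group thus lay above every blank library for FAM210A, which was not so for RNMT.

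**Figure D3:**
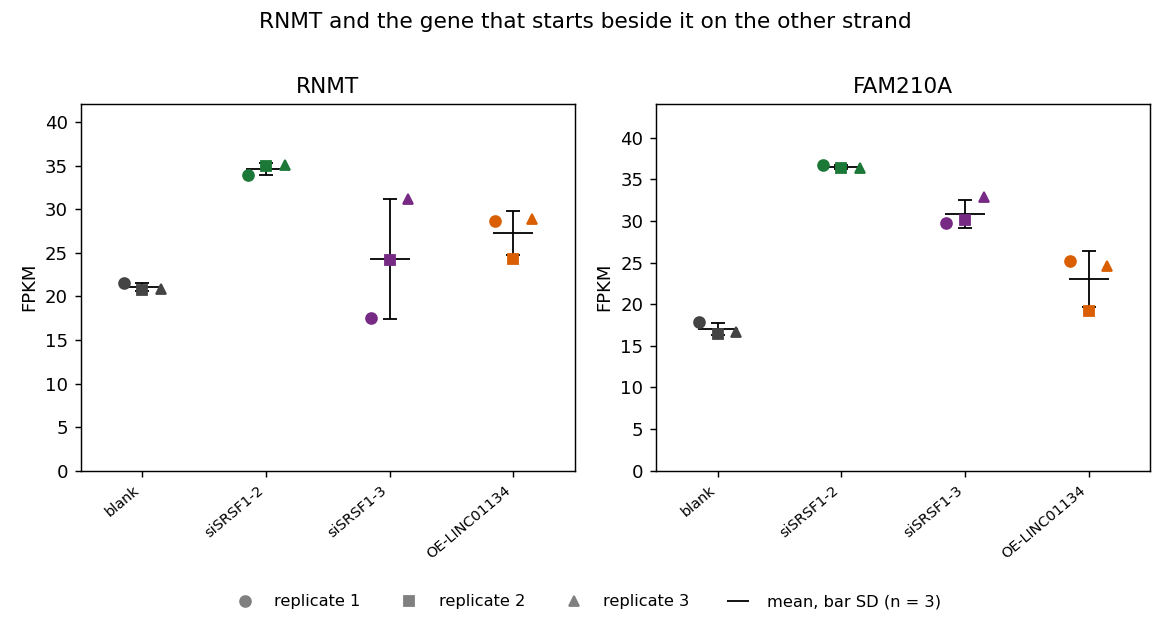
FPKM (vertical axes, from 0) of RNMT and of FAM210A in each library of the 4 groups, with the group mean and SD (n = 3). The siSRSF1-3 libraries lie between 29.8 and 32.8 FPKM for FAM210A, above all blank libraries, but spread from 17.5 to 31.2 FPKM for RNMT.

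CSTF3 (ENSG00000176102), on chromosome 11 from 33077188 to 33162371 on the minus strand, shares 28756 of its 85184 bases with TCP11L1 on the opposite strand. TCP11L1 was at 6.95 ± 0.467 FPKM in blank cells and 6.45 ± 0.149 FPKM with siSRSF1-2 (SD, n = 3; log2 fold change -0.11, adjusted p = 0.340 from limma). A long intergenic non-protein coding RNA (ENSG00000280798), also on the opposite strand, shares 2267 bases with CSTF3 and went from 2.54 ± 0.251 to 1.88 ± 0.172 FPKM (SD, n = 3; log2 fold change -0.41, adjusted p = 0.0487 from limma), the same direction as CSTF3. Whether reads were counted by strand is not given in the sources used here, so reads of these genes may not be separated, and the part of either neighbour in the CSTF3 values was not tested. CPSF7 (ENSG00000149532) lies on chromosome 11 from 61402641 to 61430031 on the minus strand, and no overlapping gene there exceeded 0.590 FPKM in any library.

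Cells given siSRSF1-3, which targets the same gene, were compared with the same blank libraries. None of the factors passed: 0 of 10 had an adjusted p under 0.05 from limma (1.28% of all genes). At an unadjusted p under 0.05 there were 0 (28.8% of all genes), and 0 in voom on the recovered reads (3.92%). SRSF1, the target itself, did not pass either (log2 fold change -2.09, adjusted p = 0.0518 from limma). The lack of calls therefore does not show that the factors were unchanged. RNMT gave 17.5, 24.1 and 31.2 FPKM, so that the siSRSF1-3 libraries reached from below to well above the blank range (log2 fold change 0.16, adjusted p = 0.653 from limma). CPSF7 spread in the same order of libraries, with 18.1, 22.1 and 30.3 FPKM (log2 fold change 0.24, adjusted p = 0.516 from limma). For CSTF3 the values were 9.06, 8.94 and 7.08 FPKM (log2 fold change -0.15, adjusted p = 0.602 from limma). In each of these genes replicate 3 lay nearest to the siSRSF1-2 values.

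CPSF3, CPSF2 and CSTF2 did not overlap between siSRSF1-3 and blank cells (37.2% of all genes did not). CPSF3 gave 29.3, 18.3 and 15.5 FPKM against a highest blank value of 14.7 FPKM (log2 fold change 0.58, SE 0.260, adjusted p = 0.188 from limma). The lead came chiefly from replicate 1, and without it the log2 fold change was 0.31 (adjusted p = 0.358 from limma). Scaled to own read totals it was 0.32, and 0.13 at one sum of FPKM. Without replicate 3, where 35.9% of all genes were called, the factor was called (log2 fold change 0.77, adjusted p = 0.0487 from limma). CPSF2, its inactive partner, moved the other way, with 2.65, 2.32 and 2.97 FPKM against 3.17, 3.46 and 3.41 FPKM in blank cells (log2 fold change -0.33, adjusted p = 0.251 from limma). CSTF2, the RNA-binding subunit of CstF, gave 16.7, 19.0 and 18.5 FPKM against 29.5, 20.2 and 19.4 FPKM in blank cells (log2 fold change -0.32, adjusted p = 0.327 from limma).

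The other 4 factors overlapped with blank cells. NUDT21 gave 28.8, 26.7 and 19.8 FPKM with siSRSF1-3, and CPSF6, the other large subunit of cleavage factor I, gave 9.85, 11.6 and 12.9 FPKM. FIP1L1 gave 6.69, 10.2 and 10.4 FPKM, and CPSF1 stayed between 39.5 and 41.4 FPKM. The direction of several of these differences depends on how libraries are scaled. The library size implied by the deposited FPKM was 0.712 of the reads on genes in siSRSF1-3 replicate 1 and 0.888 in replicate 2, against 0.990 to 1.09 in the other libraries. Scaled to their own reads, the median of all genes in siSRSF1-3 against blank cells moved from -0.01 to -0.26, and the log2 fold changes of CPSF1, CPSF7, NUDT21 and RNMT turned negative.

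Set against each other, the siRNAs left 0 factors with an adjusted p under 0.05 from limma (0.0855% of all genes) and 0 in voom (0.787%). At an unadjusted p under 0.05 there were 2 (42.1% of all genes), CPSF2 (log2 fold change of siSRSF1-3 against siSRSF1-2 -0.36, adjusted p = 0.107 from limma) and RNMT (-0.55, adjusted p = 0.112 from limma). RNMT, CPSF2 and CPSF3 did not overlap between the siRNAs (54.6% of all genes did not). RNMT was lower in every siSRSF1-3 library, at most 31.2 FPKM, than in any siSRSF1-2 library, at least 33.9 FPKM. The call of RNMT in one siRNA comparison and not in the other is therefore not shown to be a difference between the siRNAs by this test. In 1 fit over all 4 groups RNMT was called (adjusted p = 0.0393 from limma), as were 32.3% of all genes. Without siSRSF1-3 replicate 3, which raised the share of all genes called to 61.2%, 5 factors were called: RNMT (-0.75), CPSF7 (-0.41), NUDT21 (0.43), CSTF3 (0.38) and CPSF2 (-0.45).

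Cells overexpressing LINC01134 were compared with the same blank libraries once more, so the 3 comparisons with blank cells share those values. Here 0 factors had an adjusted p under 0.05 from limma (1.18% of all genes) and 0 in voom (2.97%). At an unadjusted p under 0.05 there were 4 (26.3% of all genes): CPSF7, RNMT, FIP1L1 and CPSF6. CPSF7 gave 33.2, 26.8 and 31.7 FPKM, all above the highest blank library at 22.8 FPKM (log2 fold change 0.64, SE 0.143, adjusted p = 0.0717 from limma). FIP1L1 gave 12.8, 8.13 and 13.2 FPKM against at most 7.51 FPKM in blank cells (log2 fold change 0.64, SE 0.202, adjusted p = 0.118 from limma). Replicate 2 stood close to the blank libraries for FIP1L1, and replicates 1 and 3 were nearly alike.

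CPSF6 gave 17.2, 14.9 and 17.2 FPKM with OE-LINC01134 and 14.7, 10.2 and 11.1 FPKM in blank cells (log2 fold change 0.46, adjusted p = 0.141 from limma). Its lowest OE-LINC01134 value lay only just above blank replicate 1. RNMT gave 28.7, 24.3 and 28.8 FPKM, above every blank library (log2 fold change 0.37, adjusted p = 0.106 from limma). CPSF3 gave 17.0, 14.9 and 17.5 FPKM (log2 fold change 0.27, adjusted p = 0.195 from limma). With it, 5 factors did not overlap with blank cells (30.6% of all genes did not).

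CPSF2 gave 4.62, 3.23 and 4.61 FPKM with OE-LINC01134, again with replicate 2 apart (log2 fold change 0.29, adjusted p = 0.333 from limma). CPSF1, NUDT21, CSTF2 and CSTF3 overlapped with blank cells, with log2 fold changes of 0.12, 0.04, -0.17 and -0.10. The median log2 fold change of the 10 factors was 0.28, against 0.05 over all genes tested. Without OE-LINC01134 replicate 2, which raised the share of all genes called to 25.5%, 4 factors were called: RNMT (0.45), CPSF7 (0.73), FIP1L1 (0.86) and CPSF2 (0.45). Without blank replicate 1 the calls were CPSF7 (0.75) and CPSF6 (0.61), beside 13.9% of all genes.

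Ratios of FPKM within a library do not depend on how libraries are scaled, though their size depends on the deposited gene lengths. They compare subunits of one complex. CPSF6 and CPSF7 are alternative partners of NUDT21. The ratio of CPSF6 to CPSF7 was 0.645, 0.572 and 0.614 in blank cells, 0.412, 0.422 and 0.462 with siSRSF1-2, 0.544, 0.526 and 0.427 with siSRSF1-3, and 0.518, 0.556 and 0.541 with OE-LINC01134. It was lower in all 9 other libraries than in the lowest of the blank group (p = 0.1 by exact two-sided permutation in each comparison, the smallest it can give). These comparisons share the same blank libraries. Of single genes, 49.5% with siSRSF1-2, 37.2% with siSRSF1-3 and 30.6% with OE-LINC01134 did not overlap with blank cells. The share for ratios of other gene pairs was not tested, here and for the ratios below. Group means were 0.610 ± 0.0365 in blank cells, 0.432 ± 0.0267 with siSRSF1-2, 0.499 ± 0.0628 with siSRSF1-3 and 0.538 ± 0.0189 with OE-LINC01134 (SD, n = 3).

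The ratio of NUDT21 to the sum of CPSF6 and CPSF7 was 0.812, 0.756 and 0.759 in blank cells. With siSRSF1-2 it was 0.535, 0.540 and 0.555, and with OE-LINC01134 it was 0.481, 0.673 and 0.475. Both groups lay under all blank libraries. With siSRSF1-3 the ratio was 1.03, 0.791 and 0.457, which spans the values of every other group. CPSF3 to CPSF2 was 3.98, 3.89 and 4.31 in blank cells and 11.1, 7.90 and 5.22 with siSRSF1-3, without overlap (exact two-sided permutation p = 0.1). With siSRSF1-2 it was 4.40, 4.62 and 4.42, also above all blank libraries, and with OE-LINC01134 it overlapped with them.

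CSTF2T is a close copy of CSTF2 on another chromosome, so reads of the pair may be partly shared. The ratio of CSTF2 to CSTF2T was 1.99 ± 0.0724 in blank cells, 1.74 ± 0.0241 with siSRSF1-2, 1.85 ± 0.367 with siSRSF1-3 and 1.45 ± 0.375 with OE-LINC01134 (SD, n = 3). The siSRSF1-2 and OE-LINC01134 libraries lay under the blank libraries, though OE-LINC01134 replicate 2 (1.88) stood near them. CSTF2 to CSTF3 and FIP1L1 to CPSF1 overlapped between blank cells and each other group. FIP1L1 to CPSF1 was 0.327, 0.170 and 0.328 with OE-LINC01134 and 0.136, 0.217 and 0.208 in blank cells.

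**Figure D4:**
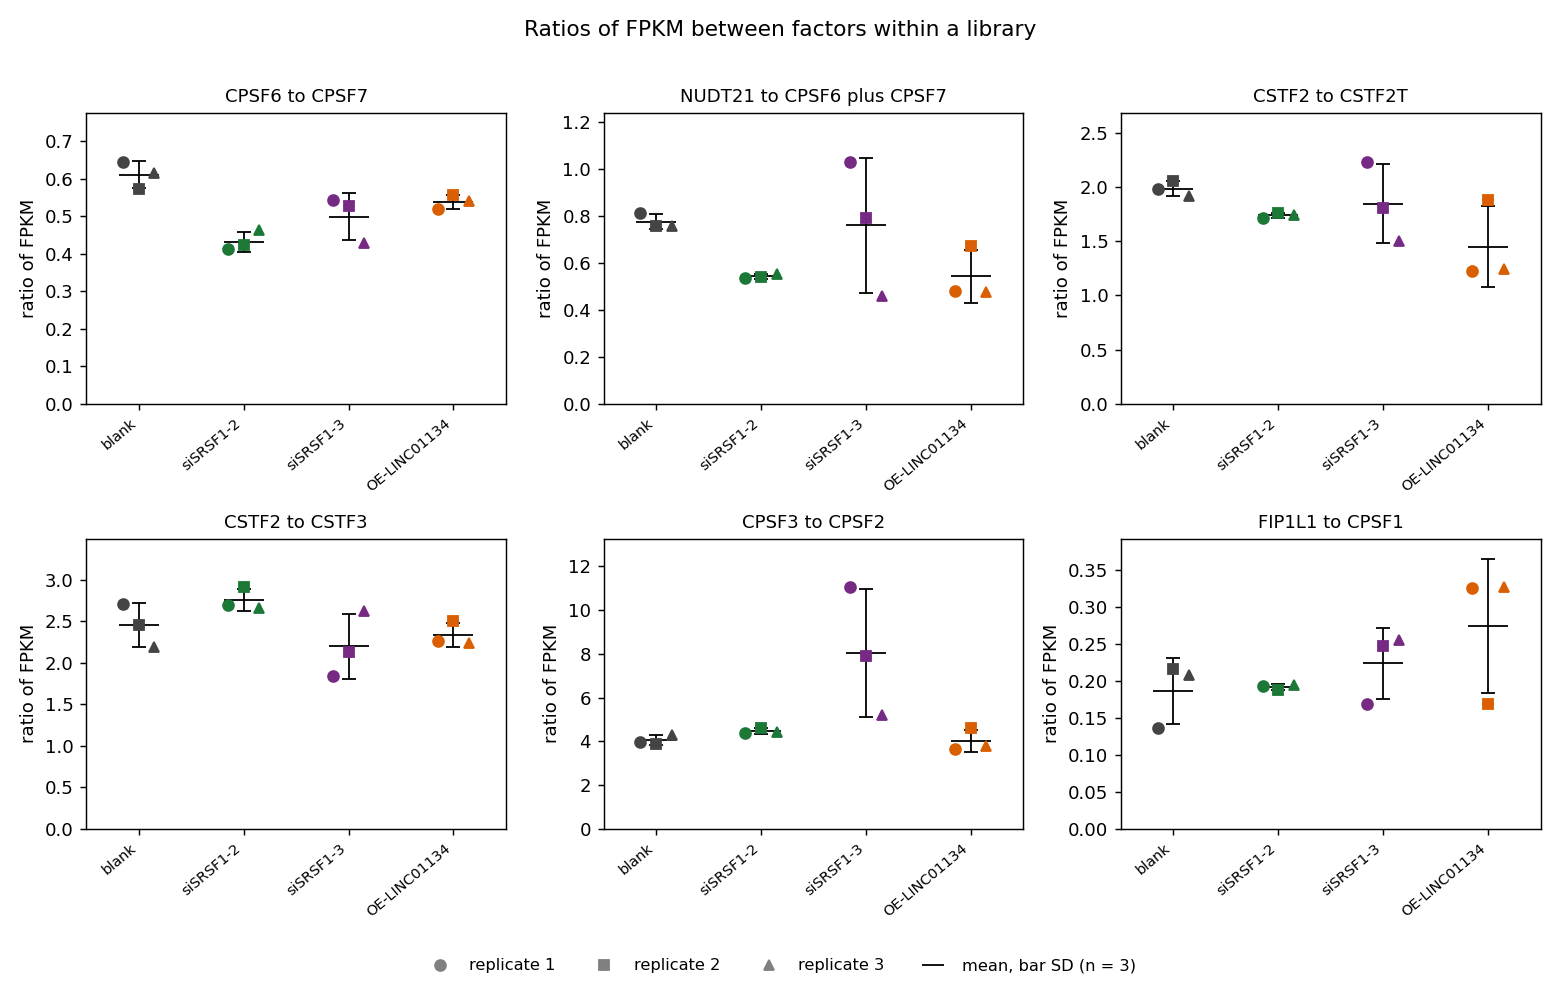
Ratio of FPKM between factors (vertical axes, from 0) within each library of the 4 groups, with the group mean and SD (n = 3). CPSF6 to CPSF7 is highest in the blank libraries (0.572 to 0.645), and CPSF3 to CPSF2 is highest with siSRSF1-3 (5.22 to 11.1).

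The rest of the pathway was read from 8 lists of 60 other genes, all of which were tested. With siSRSF1-2, 9 of the 60 were higher at an adjusted p under 0.05 from limma and 0 lower, beside 14.0% and 12.8% of all genes. Their median log2 fold change was 0.12. In voom 11 of the 60 were higher and 1 lower (14.1% and 15.3% of all genes). At one sum of FPKM 22 were higher and 0 lower (21.1% and 8.93% of all genes), and without blank replicate 1 there were 31 and 6 (27.4% and 24.7%). In 1 fit over all 4 groups, which called 3.76% of all genes, CMTR2 was the only call. With near-identical replicates averaged 0 of the 60 and 0% of all genes were called.

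In the list of other capping and cap-binding genes, 2 of 8 were higher. CMTR2, which methylates the ribose of the second transcribed nucleotide, went from 7.59 ± 0.774 to 14.3 ± 0.175 FPKM (SD, n = 3; log2 fold change 0.91, adjusted p = 0.00229 from limma), and NCBP3, a cap-binding protein, had 0.31. The deadenylation list, of enzymes that shorten the poly(A) tail, had 4 of 8 higher and a median of 0.35 (-0.15 with siSRSF1-3). CNOT1, the scaffold of the CCR4-NOT complex, went from 14.1 ± 0.979 to 21.4 ± 0.365 FPKM (log2 fold change 0.60, adjusted p = 0.00347 from limma), PAN2 had 0.56 and PAN3 0.45, which together form another deadenylase. SCAF8, kept in the termination list as a protein known to prevent early termination, went from 8.66 ± 0.808 to 14.1 ± 0.294 FPKM (log2 fold change 0.70, adjusted p = 0.00361 from limma). DCP1A, a decapping cofactor (0.56), and INTS14, a subunit of the Integrator complex (0.40), were each the only call of their list. NCBP3 also lost its call when any library other than blank replicate 1 was left out (adjusted p from 0.0886 to 0.127, limma), and PAN3 without siSRSF1-2 replicate 3 (adjusted p = 0.0515 from limma). The lists of other cleavage and polyadenylation subunits (9 genes, median 0.07), poly(A) polymerases and poly(A)-binding proteins (5 genes, 0.00) and histone 3-prime end processing (5 genes, 0.02) had 0 calls, and the genes with the smallest p were CPSF4 (0.33), PAPOLG (0.25) and LSM11 (0.21).

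With siSRSF1-3, 0 of the 60 genes had an adjusted p under 0.05 from limma or in voom (1.28% and 3.92% of all genes). At an unadjusted p under 0.05 there were 15 (28.8% of all genes). In 1 fit over all 4 groups 9 were higher and 6 lower (14.9% and 12.9% of all genes), and without siSRSF1-3 replicate 3 there were 9 and 8 (19.1% and 16.8%). The genes named above with siSRSF1-2 did not move alike here. Log2 fold changes were -1.09 for CNOT1 (8.38 ± 6.88 FPKM), -0.57 for DCP1A, -0.18 for SCAF8 and -0.07 for NCBP3. They were 0.53 for INTS14, 0.20 for CMTR2, 0.04 for PAN3 and 0.03 for PAN2. The deadenylation list had a median of -0.15, with 6 of 8 genes negative. CPSF4, a zinc finger subunit of CPSF that contacts the polyadenylation signal, had 41.9 ± 8.67 FPKM against 20.6 ± 3.34 FPKM in blank cells (SD, n = 3; log2 fold change 1.01, adjusted p = 0.0704 from limma). RAMAC, the activating subunit of RNMT, had 18.1 ± 0.884 FPKM against 13.4 ± 1.43 FPKM (SD, n = 3; log2 fold change 0.44, adjusted p = 0.146 from limma). The smallest p of the other lists belonged to PAPOLA (-0.40), XRN2 (-0.86), INTS11 (0.76), CASP8AP2 (-1.28), DXO (0.95) and CNOT6 (-0.59). Between the siRNAs 0 of the 60 passed from limma or in voom (0.0855% and 0.787% of all genes), with 23 at an unadjusted p under 0.05 (42.1%). In 1 fit over all 4 groups 8 were higher and 12 lower (16.8% and 15.5% of all genes), and without siSRSF1-3 replicate 3 there were 17 and 22 (31.2% and 30% of all genes). The smallest p of the lists belonged there to CSTF1 (0.48), PAPOLA (-0.26), SCAF8 (-0.88), INTS11 (0.69), CASP8AP2 (-1.46), CMTR2 (-0.71), DCP1A (-1.13) and CNOT6 (-0.83).

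With OE-LINC01134, 1 of the 60 genes was called (1.18% of all genes). CPSF4 went from 20.6 ± 3.34 to 42.5 ± 2.35 FPKM (SD, n = 3; log2 fold change 1.05, SE 0.137, adjusted p = 0.0372 from limma). The call was lost without blank replicate 2, blank replicate 3, OE-LINC01134 replicate 1 or OE-LINC01134 replicate 3 (adjusted p from 0.188 to 0.207, limma), with no filter on low values (0.108), without a variance trend (0.0592) and with near-identical replicates averaged (0.569). In voom CPSF4, INTS9 and PAN2 were called, all higher (2.97% of all genes called), as in 1 fit over all 4 groups (6.68%). At one sum of FPKM and at own read totals the calls were CPSF4 and INTS9 (1.61% and 1.37% of all genes). Without OE-LINC01134 replicate 2, 16 of the 60 were higher and 3 lower (13.5% and 12% of all genes), and without blank replicate 1 there were 9 and 1 (7.61% and 6.31%). At an unadjusted p under 0.05 there were 18 genes, CPSF4 included (26.3% of all genes). The smallest p of the other lists belonged to PABPC1 (-0.31), SCAF8 (0.63), INTS9 (0.99), CASP8AP2 (0.67), NCBP2 (-0.41), DXO (0.37) and PAN2 (1.07). The median of the 60 genes was 0.17.

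**Figure D5:**
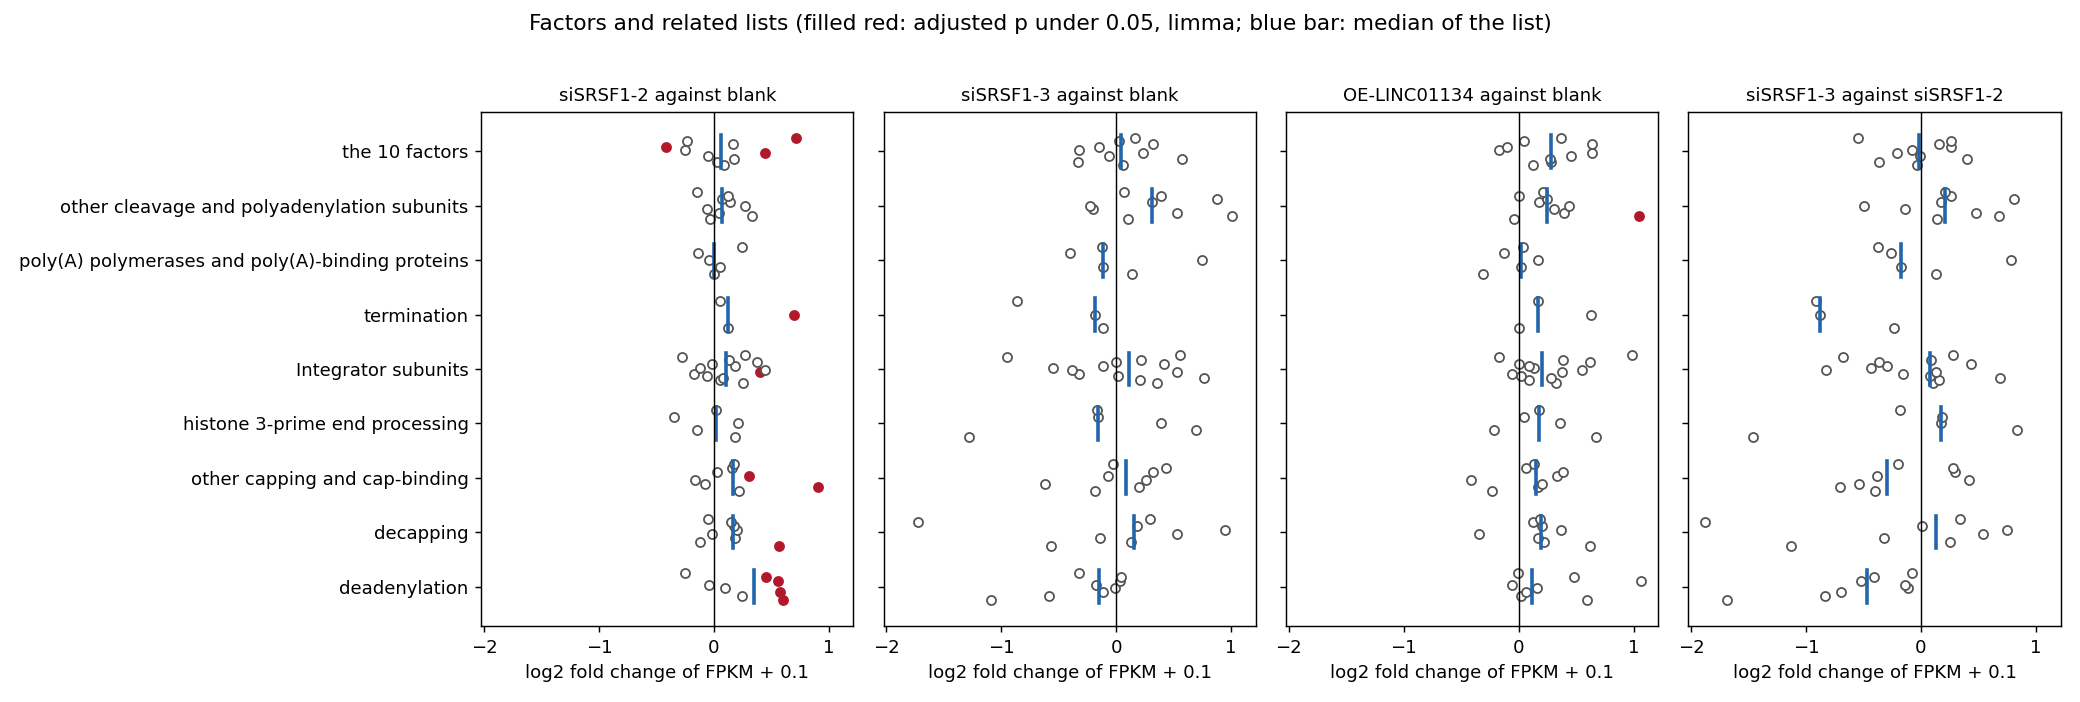
Log2 fold change of FPKM + 0.1 (horizontal axis) of the 10 factors and of the genes of 8 related lists (vertical axis) in the 4 comparisons, 1 point per gene, with the median of each list as a blue bar. Filled red points mark an adjusted p under 0.05 from limma, found for 9 of the 60 other genes with siSRSF1-2 and for CPSF4 with OE-LINC01134.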

How the data were processed

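The authors deposited FPKM per gene and library, with gene lengths in bases and coordinates, for 12 RNA-Seq libraries. The aligner, counting program and human genome build are not given in the sources used here. The submitters' processing notes name GRCm38 and mm10 and the labels give mouse, but the identifiers are human Ensembl genes, so the samples were treated as human. The labels name a SMARTer kit, the supplementary methods a NEBNext kit with poly-T selection. The study's methods place siRNA transfection in HOS cells, whereas its results and the labels give U2OS for the RNA-Seq. The supplementary methods state 2 biological replicates per condition. A figure legend of the study gives 3 experimental repeats, and the labels give 3 replicates per group.

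Columns were assigned to samples by name, reading siASF as SRSF1, of which ASF is another name. Full names gave a gene for 85 of 85 symbols looked up. Multiplied by gene length, the FPKM of a library were whole multiples of 1 step (largest deviation 0.000105 reads), which gave the reads per gene and showed that the FPKM carry size factors (median reads on genes 27538708).

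Pairs of groups were compared on log2(FPKM + 0.1) with limma 3.58.1 in R 4.3.3 (lmFit, eBayes with trend) over the 17538 genes with a mean of at least 0.5 FPKM, with Benjamini-Hochberg adjustment over all of them. A log2 fold change on this scale understates changes of low genes. Since only FPKM were deposited, the count test of the study was not run on them. Limma's voom on recovered reads was an alternative. The fits were tried on simulated counts with the same small spread in every group. These held no outlying library, so libraries that stand apart, as here, were not covered. Ratios were compared by exact two-sided permutation tests over libraries.

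The factors and lists were chosen with earlier results of these data known. Named were all 10 factors, SRSF1 and LINC01134, and per list and comparison up to 3 called genes by smallest p, otherwise the gene with the smallest p. FAM210A and TCP11L1 were added for their position. No sequences are shown, as no human reference was used here.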

Additional observations from a re-analysis of the deposited data

Results flagged for a closer look

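CPSF6 differed between groups in direction. Every OE-LINC01134 library lay above the mean of the blank libraries and every siSRSF1-2 library lay below it, with mean log2 differences from it of 0.44 and -0.07, so that the groups were 0.514 apart on the log2 scale. The difference between these groups was not tested. The blank mean holds replicate 1 at 14.7 FPKM beside 10.2 and 11.1 FPKM, and without that library the log2 fold change of CPSF6 with siSRSF1-2 was 0.10.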

How the results depend on the processing

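With siSRSF1-2 against blank cells, 1 factor was called with no filter on low values (4.75% of all genes). In 1 fit over all 4 groups 0 were called (3.76%), as with an absolute log2 fold change over 1 (4.95%). Averaging near-identical replicates, chosen after seeing the data, left 1 siSRSF1-2 library, with a log2 fold change of 0.71 for RNMT. With the replicate number as a block, which called 14.1% of all genes, RNMT was the only factor called (adjusted p = 0.0215 from limma). CPSF7 (adjusted p = 0.0517) and CSTF3 (0.0875, both limma) lost their calls there. The block moved no other count of factors called, and among the 60 other genes CPSF4 with OE-LINC01134 (adjusted p = 0.0855) and NCBP3 with siSRSF1-2 (adjusted p = 0.0993, both limma) lost their calls. Same-numbered libraries did not deviate together (correlations from -0.08 to 0.04), so the numbers were not taken as pairs. At an unadjusted p under 0.05 the counts were 4 with OE-LINC01134 (26.3% of all genes) and 2 between the siRNAs (42.1%). There 1 fit over all 4 groups gave 1 (32.3%). When single libraries were left out, the counts ranged from 1 to 4 with siSRSF1-2, where 10.4% to 52.2% of all genes were called. They ranged from 0 to 1 with siSRSF1-3 (0% to 35.9% of all genes) and from 0 to 4 with OE-LINC01134 (0.0057% to 25.5%). Between the siRNAs they ranged from 0 to 5 (0% to 61.2%). No 2 libraries agreed within counting noise, so the planned averaging of such libraries was not run.

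Directions changed for factors that did not pass the test. Rescaling FPKM to the same sum moved the median of all genes from -0.01 to -0.43 in siSRSF1-3 against blank cells. It moved from -0.02 to -0.57 between the siRNAs and from 0.02 to 0.15 with siSRSF1-2. In siSRSF1-3 against blank cells, the log2 fold changes at the same sum were -0.39 for CPSF1, -0.21 for CPSF7, -0.42 for NUDT21, -0.12 for FIP1L1 and -0.28 for RNMT. Scaled to own read totals they were -0.20 for CPSF1, -0.022 for CPSF7, -0.23 for NUDT21 and -0.094 for RNMT. In the same comparison, averaging near-identical replicates gave -0.024 for CPSF1 and -0.055 for NUDT21, and voom gave -0.014 for NUDT21. Between the siRNAs, the same sum gave -0.17 for CPSF3, -0.31 for NUDT21, -0.31 for CSTF3 and -0.41 for FIP1L1, and own read totals -0.040 for NUDT21, -0.039 for CSTF3 and -0.14 for FIP1L1. CPSF6 with siSRSF1-2 was 0.077 at the same sum. Leaving out single libraries gave log2 fold changes on both sides of 0 for CPSF2 (-0.0087 to 0.052) and CPSF6 (-0.16 to 0.10) with siSRSF1-2, for CPSF1 (-0.026 to 0.22), CPSF6 (-0.17 to 0.094), NUDT21 (-0.082 to 0.19) and RNMT (-0.036 to 0.38) with siSRSF1-3, for NUDT21 (-0.053 to 0.21), CSTF2 (-0.28 to 0.022) and CSTF3 (-0.19 to 0.012) with OE-LINC01134, and for CPSF6 between the siRNAs (-0.097 to 0.099). Apart from the construction of these settings, the cause was not tested. With 3 libraries a group, an exact test cannot go below 0.1.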

Other observations

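The genes whose log2 FPKM followed each factor most closely were sought among 11181 protein-coding genes over the 12 libraries, which share groups and the scaling of the table. RNMT was followed by AKAP10 (r = 0.983, rho = 0.972) and SLC38A1 (r = 0.981), and CPSF6 by COPS2 (r = 0.985) and LIMK2 (r = 0.968). CPSF3 was followed by RECQL5 (r = 0.972, rho = 0.993) and C1D (r = 0.968), CPSF7 by ATF1 (r = 0.965) and ZMYND11 (r = 0.962), and NUDT21 by RPUSD1 and TRIM28 (r = 0.967 each). CSTF3 had SUMO2 (r = 0.966) and CENPA (r = 0.965), FIP1L1 had BRSK1 (r = 0.960) and TMEM230 (r = 0.950), and CPSF2 had PPP4R3A (r = 0.963) and KLHL8 (r = 0.960). CPSF1 had HDAC1 (r = 0.929) and HSPA14 (r = 0.914). CSTF2 had DDX54 (r = 0.980) and ELAC2 (r = 0.959) with rank correlations of only 0.643 and 0.622, and its blank replicate 1, at 29.5 FPKM, lay well above its other libraries. These values describe the libraries and carry no test.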
